A study of Mus musculus with 34 samples.

Results

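Cldn5, Pecam1, Flt1, Cdh5, Tek, Slco1a4, Itm2a and Slc2a1 are 8 genes known from brain endothelium, the cell layer that lines blood vessels. They were taken by symbol from the 11531 genes listed for mouse hippocampus, where all 8 were found; 2 of the 8 were listed among the 10379 genes of a hippocampal primary culture and 5 among the 11029 genes of mouse embryonic stem cells. Cldn5 was chosen by its ribosome footprints, which were lower than in control at 10 and 30 min after fear conditioning, so footprints relative to control are given as a description, with no test, for it and for the other 7.

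The hippocampus of C57BL/6N mice was profiled by sequencing the mRNA pieces that ribosomes shield from digestion (footprints, RPF) and, in separate libraries, RNA. Control mice received no stimulus. The other 4 groups underwent contextual fear conditioning, in which a mouse explores a chamber and then receives a foot shock, and were sampled 5 min, 10 min, 30 min or 4 h later. Each of the 5 groups had 3 RPF and 3 RNA libraries, which makes 15 of each kind. The primary culture and the embryonic stem cells (ESC, line A3-1, given a siRNA against luciferase) had 1 library of each kind. The labels do not state that replicates were separate mice; p-values therefore describe the spread among these libraries, part of which may be technical. The hippocampus was sequenced as bulk tissue, so fewer endothelial cells and less RNA per endothelial cell cannot be told apart.

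In the brain, endothelial cells form the blood-brain barrier: tight junctions seal the gaps between neighbouring cells, and transporters in the membrane carry nutrients across them. Cldn5 encodes claudin-5, the main claudin of these tight junctions. Cdh5 (VE-cadherin) and Pecam1 (CD31) encode adhesion proteins of the contacts between endothelial cells, Flt1 a receptor for vascular endothelial growth factor and Tek (Tie2) the receptor for angiopoietins. Slc2a1 (GLUT1) carries glucose, Slco1a4 organic anions including steroid conjugates and drugs, and Itm2a encodes a membrane protein that is abundant in brain endothelium. Slc2a1 is also made by astrocytes and many dividing cells, and Pecam1 is known on the surface of mouse embryonic stem cells, so neither is specific to vessels.

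Transcription factors of the ETS family, which bind a GGAA core, are known regulators of endothelial genes. The 250 bases before the start of Cldn5, the member with the largest RNA difference, are shown beside those of both growth factor receptors, Flt1 and Tek, with GGAA (or TTCC, its reverse) in capitals. The sequences are from RefSeq, build GRCm38.p6, which is not the build of the deposited values; each runs 5′ to 3′ on the strand of its gene. Of the 8 genes, 6 had an entry in that table; Cdh5 and Pecam1 had none.
Cldn5, chr16:18776597-18776846, plus strand: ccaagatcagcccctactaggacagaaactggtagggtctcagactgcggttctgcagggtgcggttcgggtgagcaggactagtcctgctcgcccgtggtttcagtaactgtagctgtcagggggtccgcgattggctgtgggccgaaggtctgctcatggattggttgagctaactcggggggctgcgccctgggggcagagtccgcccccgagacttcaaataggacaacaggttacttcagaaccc
Flt1, chr5:147726012-147726261, minus strand: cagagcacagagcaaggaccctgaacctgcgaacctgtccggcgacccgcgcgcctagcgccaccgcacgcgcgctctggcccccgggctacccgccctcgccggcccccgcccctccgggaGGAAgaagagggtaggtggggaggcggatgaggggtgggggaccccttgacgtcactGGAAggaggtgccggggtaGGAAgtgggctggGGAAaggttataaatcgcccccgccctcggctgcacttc
Tek, chr4:94739039-94739288, plus strand: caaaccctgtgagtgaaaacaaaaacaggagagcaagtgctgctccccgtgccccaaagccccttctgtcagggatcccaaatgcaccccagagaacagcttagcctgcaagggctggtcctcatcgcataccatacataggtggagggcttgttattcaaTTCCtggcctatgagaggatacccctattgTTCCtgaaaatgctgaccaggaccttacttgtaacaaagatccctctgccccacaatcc
Neither GGAA nor TTCC occurred in the Cldn5 window, and neither occurred in that of Slc2a1; 6.55% of 32851 promoter windows of this length held no such match. Flt1, Slco1a4 and Itm2a had 4 matches each and Tek had 2, against a median of 3 over all windows. The longer form AGGAAG (or CTTCCT), which contains GGAA, occurred 2 times in each of Flt1 and Itm2a and 1 time in Slco1a4, and 29.5% of all windows held it. ACAAAG (or CTTTGT), a form of the motif bound by SOX factors, occurred in Tek alone among the 6, and 16.5% of all windows held it. These matches describe letters in a window and are no evidence of binding.

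The deposited values, called signal here, are reads divided by 1 number per library, so they can be compared between libraries for a gene but not between genes as amounts. Tissue libraries held 14240563 to 30480009 reads on listed genes in RPF and 16814796 to 25515210 in RNA. The tissue tables also listed 32 of 48 further endothelial genes looked for, beside all 12 neuronal and all 12 astrocyte markers. The members were covered unevenly. Tek had the fewest footprints, 99 to 189 reads per library, and Slc2a1 the most, 1923 to 4550. In RNA, Cdh5 had 93 to 189 reads and Slc2a1 878 to 1553.

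Cldn5 RNA was lower than in control at all 4 times after conditioning, with means at 80.1 to 92.2% of the control mean, and no difference passed the test across all genes. Its RNA signal was 1.66, 1.56 and 1.48 in the control libraries. At 5 min it was 1.44, 1.49 and 1.25, and at 10 min 1.26, 1.30 and 1.20. At 30 min it was 1.28, 1.17 and 1.38, and at 4 h 1.43, 1.49 and 1.41. Every library of the 10 and 30 min groups lay below every control library, while the 5 min and 4 h groups overlapped with control. In order of level, control stood highest at 1.57 ± 0.094 (SD, n = 3), then 4 h at 1.45 ± 0.045, 5 min at 1.39 ± 0.123, 30 min at 1.28 ± 0.109 and 10 min at 1.25 ± 0.055. Neighbours in that order differed by less than the larger of their SDs, apart from control, whose gap to 4 h was larger than the SD of either.

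The test used limma on log2(signal + 0.1), with all 15 RNA libraries in 1 model and Benjamini-Hochberg adjustment over 11531 genes. Cldn5 differed by -0.30 ± 0.083 (log2, SE) at 10 min and by -0.28 ± 0.083 at 30 min, with unadjusted p = 0.00271 and 0.00454 from limma and adjusted p = 1.00 for both. At 5 min the value was -0.16 ± 0.083 and at 4 h it was -0.11 ± 0.083, with limma adjusted p = 1.00 in each. Averaged over the 4 times, Cldn5 RNA stood at -0.21 ± 0.066 (unadjusted p = 0.00589, limma adjusted p = 1.00). All 3 replicate numbers were lower than the control library of the same number at each of the 4 times. The 4 times share the same 3 control libraries, so they do not repeat this independently. How many of all genes do the same was not counted. With the replicate number as a block in the limma model, adjusted p was 0.322 at 10 min, 0.423 at 30 min and 0.175 for the mean of the times.

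**Figure D1:**
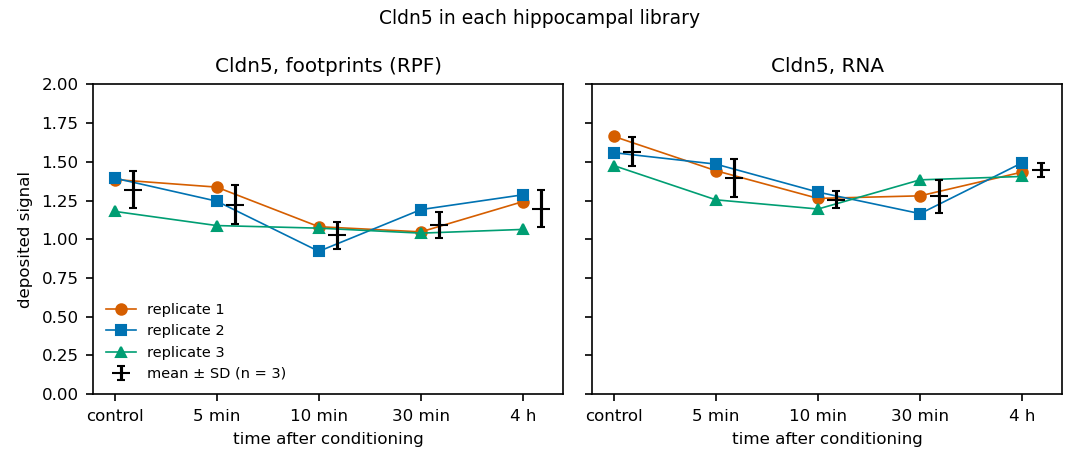
Cldn5 signal (vertical axis, deposited units) in footprints (left) and RNA (right) of each hippocampal library, by time after conditioning; coloured points and lines are the 3 replicate numbers and black marks the mean ± SD. RNA at 10 min lies between 1.20 and 1.30, below the control libraries at 1.48 to 1.66.

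Among the 11531 genes, 0 were called in RNA by limma at 5, 10 or 30 min or 4 h, or over the mean of the 4 times (0% of genes in each), while 153, 221, 206, 326 and 329 genes had an unadjusted p under 0.05; limma's voom on the recovered reads also called 0 in each. With the replicate number as a block limma called 4, 5, 4, 5 and 4 genes, none of them a member. Of the 8 members, Cldn5 alone had an RNA range below that of control, at 10 min and again at 30 min. Over all genes, 2.15% lay wholly below control in RNA at 5 min, 2.03% at 10 min, 1.4% at 30 min and 2.19% at 4 h. No member lay wholly above control in RNA at any time, which 3.01%, 5.4%, 4.27% and 4.8% of all genes did at the 4 times.

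Footprints of Cldn5, the values by which it was chosen, were 1.39, 1.40 and 1.18 in control. They were 1.34, 1.25 and 1.09 at 5 min and 1.08, 0.922 and 1.07 at 10 min. At 30 min they were 1.05, 1.19 and 1.04, and at 4 h 1.24, 1.29 and 1.06. Only the 10 min group lay wholly below control, and the replicate 3 libraries were the lowest of control, 5 min, 30 min and 4 h. The log2 differences from control were -0.10 at 5 min, -0.34 at 10 min, -0.25 at 30 min and -0.13 at 4 h. All of these comparisons, and those of the other members below, share the same 3 control libraries. RNA and footprint libraries carry the same group and number labels, and no label states whether they came from the same tissue, so the RNA values of Cldn5 may not be independent of the footprints that led to its choice.

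Pecam1 footprints also lay wholly below control at 10 min. The Pecam1 footprint signal was 0.574, 0.385 and 0.486 at 10 min, against 0.772, 0.623 and 0.603 in control. The groups did not overlap, and the log2 difference was -0.40. Pecam1 RNA was 0.550, 0.583 and 0.681 at 10 min, against 0.635, 0.510 and 0.502 in control. Those RNA groups overlapped, and the RNA difference was 0.12 ± 0.119 (SE; limma adjusted p = 1.00). Cldn5 and Pecam1 were thus 2 of 8 members whose footprints lay wholly below control at 10 min, when 1.97% of all genes did. This contrast was used in choosing Cldn5, and the other members were also chosen with footprint changes from control known. The count is therefore a description only. At the other 3 times 0 of 8 members were wholly below control in footprints, against 3.44% of all genes at 5 min, 0.997% at 30 min and 1.85% at 4 h. None lay wholly above it at any time, against 1.82%, 1.65%, 1.28% and 1.78% of genes at the 4 times.

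Cdh5, which encodes the adhesion protein VE-cadherin, had lower mean RNA than control at all 4 times, but its control libraries were far apart. Cdh5 RNA was 0.566, 0.373 and 0.365 in control, 0.466, 0.362 and 0.328 at 5 min and 0.442, 0.293 and 0.413 at 10 min. It was 0.463, 0.285 and 0.377 at 30 min and 0.478, 0.342 and 0.361 at 4 h. Replicate 1 was the highest of each group and every time overlapped with control. The RNA differences ran between -0.17 and -0.11, each smaller than its SE of 0.182. Number by number, Cdh5 RNA was lower than in control in 3 of 3 at 5 min and 4 h and in 2 of 3 at 10 and 30 min. With the replicate number as a block the SE was 0.110 and limma adjusted p lay between 0.663 and 0.869. Without control replicate 1 alone the differences were 0.0389, 0.0275, 0.0011 and 0.0632 at 5, 10 and 30 min and 4 h, while without replicate 1 in every group they were -0.0769, -0.0631, -0.13 and -0.0561. Cdh5 footprints averaged 1.12 ± 0.342 in control, 1.17 ± 0.163 at 5 min, 0.971 ± 0.236 at 10 min, 1.05 ± 0.188 at 30 min and 1.35 ± 0.331 at 4 h (SD, n = 3 each). At 10 min they were lower than in control in 3 of 3 numbers, with overlapping groups and a log2 difference of -0.17.

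Both receptor genes had their highest mean at 4 h, in footprints and in RNA, and neither passed the test. Tek RNA was 0.796, 0.708 and 0.801 at 4 h, against 0.653, 0.536 and 0.724 in control. The 4 h library was the higher in each of the 3 replicate numbers, although the lowest 4 h library lay below the highest of control. The Tek RNA difference at 4 h was 0.24 ± 0.117 (unadjusted p = 0.0564, limma adjusted p = 1.00), the largest positive value of any member at any time. A replicate block in the model gave it an SE of 0.107 and limma adjusted p = 0.301. At the 3 earlier times Tek RNA averaged 0.627 to 0.634, against 0.638 in control. Tek footprints averaged 0.481 ± 0.057 at 4 h, against 0.408 ± 0.063 in control.

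Flt1 footprints averaged 1.8 ± 0.325 in control, 1.8 ± 0.226 at 5 min, 1.79 ± 0.376 at 10 min, 1.84 ± 0.305 at 30 min and 2.10 ± 0.489 at 4 h. The SD of each group exceeded every difference between the first 4. Flt1 RNA at 4 h was 1.20, 0.907 and 1.12, against 1.16, 0.982 and 0.892 in control. The ranges overlapped, with a difference of 0.08 ± 0.122 (SE; limma adjusted p = 1.00). A replicate block gave an SE of 0.096 and limma adjusted p = 0.752.

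The transporter genes and Itm2a passed no test with time either. Slc2a1 RNA was 3.93, 3.12 and 3.77 at 4 h, against 3.82, 2.76 and 3.16 in control. It was higher at 4 h in each replicate number, with overlapping groups and a difference of 0.16 ± 0.137 (SE; limma adjusted p = 1.00). Itm2a RNA was 1.77, 1.58 and 1.43 at 4 h, against 1.67, 1.24 and 1.17 in control. That is again higher in each number and overlapping, with a difference of 0.22 ± 0.129 (SE; limma adjusted p = 1.00). Slco1a4 RNA had its lowest mean at 30 min, where its libraries had 1.96, 1.60 and 1.52, against 2.14, 2.03 and 1.65 in control, and differed by -0.19 ± 0.159 (SE; limma adjusted p = 1.00). In the model with the replicate number as a block these SEs were smaller, and none of the 3 differences passed. The blocked SE was 0.059 for Slc2a1 and 0.084 for Itm2a at 4 h, with limma adjusted p = 0.234 and 0.231. For Slco1a4 at 30 min it was 0.074, with limma adjusted p = 0.481. Footprints of Slco1a4 at 30 min averaged 1.33 ± 0.378, against 1.48 ± 0.441 in control.

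**Figure D2:**
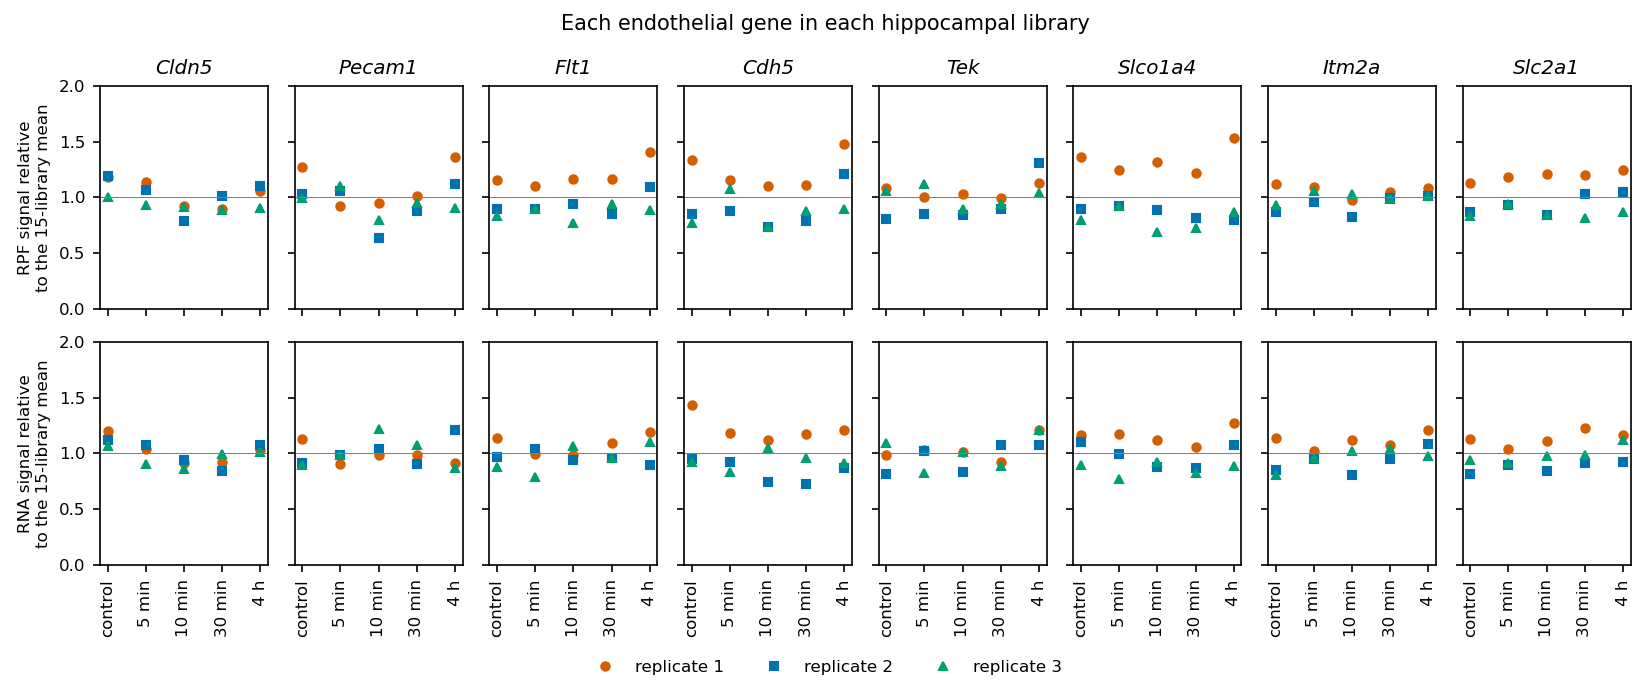
Footprint (top) and RNA (bottom) signal of each member in each hippocampal library, divided by that gene's mean over 15 libraries, by time after conditioning; points are libraries, coloured by replicate number. Replicate 1 is the highest in all 5 groups for the footprints of Flt1, Slc2a1, Slco1a4 and Cdh5, and the Cldn5 panels show the lower 10 and 30 min groups.

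**Figure D3:**
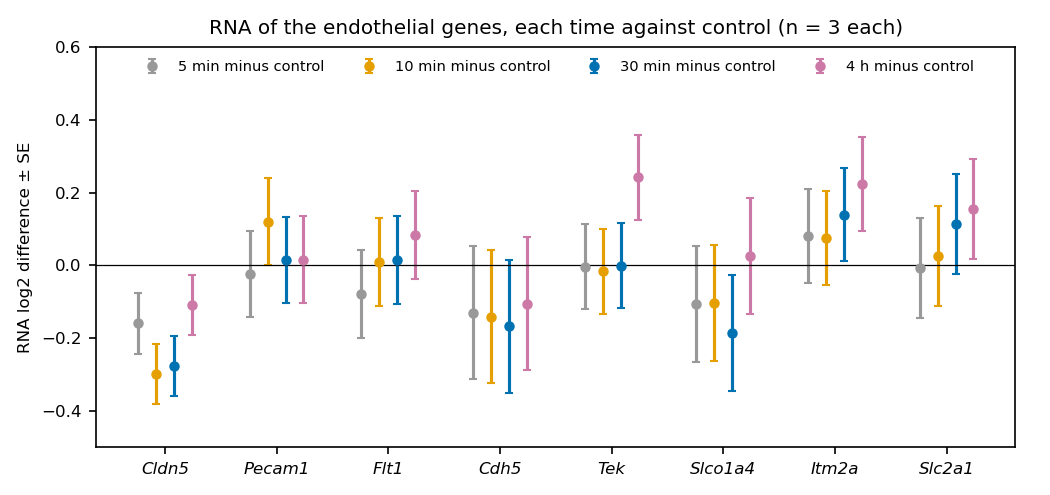
RNA difference of each member at each time from control (log2, points) with its standard error (bars), from limma on 3 libraries per group without the replicate block. Cldn5 at 10 and 30 min lies at -0.30 and -0.28, and Tek at 4 h lies at 0.24; no value passed the test across all genes.

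As a group, the members had no direction in RNA shared by all 4 times. At 5 min 7 of 8 had a negative log2 difference and 1 a positive one, with a median of -0.05; at 10 and 30 min 4 had a negative and 4 a positive value each, with medians near 0. At 4 h 6 were positive and 2, Cldn5 and Cdh5, negative, with a median of 0.05. Over all 11531 genes the medians were 0.01, 0.03, 0.03 and 0.02 at the 4 times. Footprint changes from control were known when the 8 members were chosen and are a description. In footprints 6 of 8 were higher than control at 5 min, 1 at 10 min, 3 at 30 min and 7 at 4 h. The medians were 0.03, -0.08, -0.05 and 0.12. Of all 11531 genes 5267, 5514, 6499 and 5490 were higher in footprints. Footprints at 4 h were also compared with those at 5 min, a difference in which the control means play no part. The changes of both groups from control were known when the members were chosen. The p-values of this comparison may therefore not be independent of that choice. Tek had 0.467, 0.544 and 0.433 at 4 h, against 0.415, 0.354 and 0.464 at 5 min, a difference of 0.19 ± 0.117 (SE; limma adjusted p = 1.00). Flt1 differed by 0.20 ± 0.182 and Cldn5 by -0.03 ± 0.105 in that comparison, in which limma called 0 of 11531 genes (0%), voom 0, and 106 had an unadjusted p under 0.05; Flt1 had limma adjusted p = 1.00. A replicate block gave SEs of 0.076 for Flt1 and 0.106 for Tek, with limma adjusted p = 0.894 and 0.998.

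Genes of the other vascular lists gave 0 calls in the same RNA tests. In bulk tissue the signal of these genes, the abundant ones named here among them, may also come from other cells. Of all 11531 genes, 7595 were higher than control in value at 10 min and 6935 at 4 h. Of 32 further endothelial genes listed, 17 were lower and 15 higher in value at 10 min (median -0.02), and 10 were lower and 22 higher at 4 h (median 0.04). Tjp1, which encodes the tight junction scaffold ZO-1, had an RNA difference of 0.14 ± 0.054 at 10 min, with a limma unadjusted p of 0.0232 and adjusted p = 1.00. In RNA it thus stood on the other side of 0 from Cldn5. Tjp1 footprints at 10 min averaged 1.47 ± 0.381 (SD), below the 1.59 ± 0.378 of control. In RNA at 10 min, Ly6e and Cd34, the other abundant genes of that list, stood at 0.00 and 0.05. Of 23 blood-brain barrier transporter genes, 18 were higher and 5 lower in value at 10 min (median 0.04), and 17 were higher and 6 lower at 4 h (median 0.07). They include Tfrc, the transferrin receptor gene, at 0.10 at 10 min, Insr, the insulin receptor gene, at 0.04 and Slc39a10, a zinc transporter gene, at 0.05.

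Among 10 ligands and receptors of the growth factor and angiopoietin pathways, which share Kdr, Tie1 and Ptprb with the endothelial list, 6 were higher and 4 lower at 10 min (median 0.03), and 8 were higher and 2 lower at 4 h (median 0.05). At 10 min Nrp1 and Nrp2, which encode co-receptors of vascular endothelial growth factor, stood at 0.09 and 0.10, and Ptprb, which encodes a phosphatase acting on Tie2, at -0.08. Wnt signals from neural cells maintain the barrier, and 10 of 14 listed genes of that pathway were higher and 4 lower at 10 min (median 0.07), while 5 were higher and 9 lower at 4 h (median -0.01). Its 3 genes of highest RNA signal were, at 10 min, Ctnnb1 (β-catenin) at -0.11, Lrp6 (a Wnt co-receptor) at 0.12 and Tspan12 (a partner of the Frizzled-4 receptor) at 0.01. Pericyte and smooth muscle genes, with 13 listed, had a median of 0.02, and their summed RNA signal was 14.4 to 16.4 at 10 min, against 14.8 to 16.6 in control.

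Between replicate numbers 4 members were called in RNA and 5 in footprints, against 0 between times. Of all genes, 55.5% were called in RNA and 64% in footprints, so the shares of members are near the background. Slc2a1 footprints averaged 9.86 ± 0.344 in replicate 1, 7.79 ± 0.766 in replicate 2 and 7.09 ± 0.413 in replicate 3 (SD over the 5 groups). All 5 libraries of replicate 1 lay above the 10 others. Slco1a4 footprints averaged 1.93 ± 0.179, 1.25 ± 0.080 and 1.16 ± 0.143 in replicates 1, 2 and 3, again with replicate 1 wholly above the rest. Flt1 footprints averaged 2.24 ± 0.219, 1.74 ± 0.174 and 1.61 ± 0.124, and here too no library of replicates 2 or 3 reached replicate 1. How many of all genes separate replicate 1 in this way was not counted. Replicate 1 had the highest mean log2 signal for 8 of 8 members in footprints, against 5105 of 11531 genes. In RNA it did so for 7 of 8, against 6062 genes.

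Cdh5 averaged 1.40 ± 0.186, 1.01 ± 0.210 and 0.984 ± 0.149 in footprints of replicates 1, 2 and 3 and 0.483 ± 0.048, 0.331 ± 0.040 and 0.369 ± 0.031 in RNA. The calls are by limma's F test with group in the model. The 4 in RNA were Slc2a1 (adjusted p = 8.46e-07), Slco1a4 (3.63e-06), Cdh5 (2.5e-04) and Itm2a (0.00388), and footprints added Flt1 (5.59e-06). Cldn5, Pecam1 and Tek were not called in either kind of library. Their limma adjusted p was 0.553, 0.932 and 0.611 in RNA and 0.104, 0.0996 and 0.302 in footprints. Cldn5 RNA averaged 1.42 ± 0.161, 1.40 ± 0.163 and 1.34 ± 0.115 in replicates 1, 2 and 3. Without replicate 1, limma called 1 member, Slc2a1, in RNA and 0 in footprints, where the 5 had adjusted p from 0.151 to 0.865. Of all 11531 genes it then called 1808 in RNA and 1809 in footprints.

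Genes known from other tissue at the border of the hippocampus also differed by replicate number, and so did genes known from other cells within it. In RNA, 12 of 12 astrocyte, 10 of 12 neuronal and 10 of 12 microglial markers were called, against 55.5% of all genes. All 19 listed choroid plexus genes were called in both kinds of library, and their summed RNA signal was 531 to 807 in replicate 1, 319 to 720 in replicate 2 and 34.1 to 212 in replicate 3. Meningeal fibroblast genes, with 12 listed and 12 called in RNA, summed to 38.8 to 43.7, 29.5 to 32.1 and 28.1 to 31.4 in RNA of those replicates. The 13 pericyte and smooth muscle genes summed to 16.4 to 16.7, 14.4 to 15.7 and 14.4 to 15.6. None of these genes was listed at 0 in any tissue library. Their part in the replicate differences of the members was not tested. Across times, the choroid plexus sum in RNA was 212 to 644 at 10 min, 84.6 to 531 at 30 min and 77.4 to 807 in control. All 19 choroid plexus genes were lower than control in RNA value at 5 min, 30 min and 4 h (medians -0.24, -0.41 and -0.68), and 18 of 19 were higher at 10 min (median 0.17). limma called none of them at any of these times, and with the replicate number as a block it called 2 at 4 h, Aqp1 and Calml4, which were lower (limma adjusted p = 0.0390 and 0.0197). In footprints all 19 were lower in value at 10 min, 30 min and 4 h (medians -0.12, -0.43 and -0.76), and 11 of 19 were higher at 5 min (median 0.06). Their part in the Cldn5 values was not tested.

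**Figure D4:**
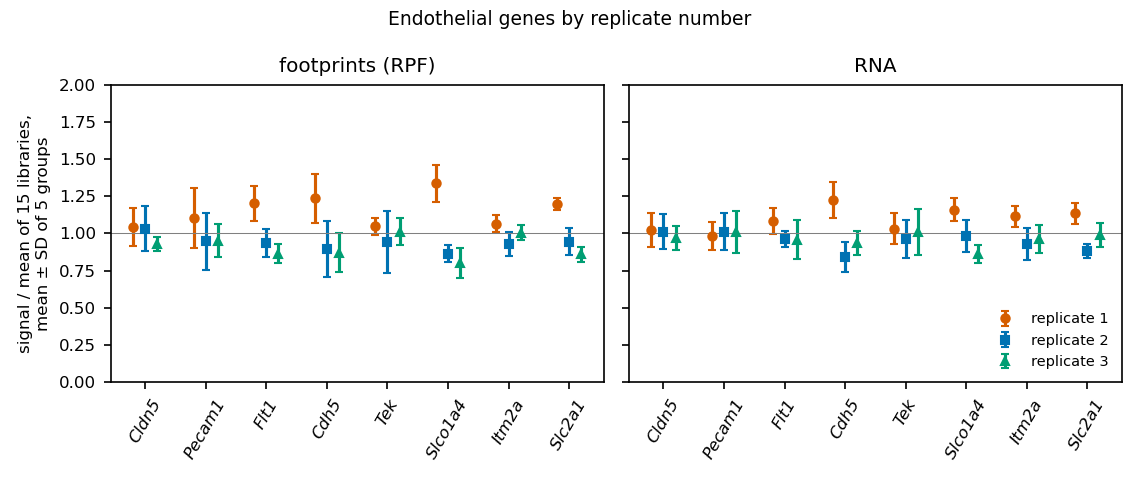
Mean signal of each member in replicates 1, 2 and 3 (points) with the SD over 5 groups (bars), divided by the gene's mean over 15 libraries, in footprints (left) and RNA (right). The mean of replicate 1 stands above the others for Flt1, Cdh5, Slco1a4 and Slc2a1 in footprints, and the 3 numbers overlap for Cldn5, Pecam1 and Tek.

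The members differed widely in footprints per RNA, a measure of how heavily an mRNA is loaded with ribosomes. It was taken as log2((RPF + 0.1)/(RNA + 0.1)) minus the value of the median gene of the same sample. In control, Itm2a stood at 1.75 ± 0.103 (SD, n = 3), above 97.3% of genes, and Slc2a1 at 1.22 ± 0.141 and Cdh5 at 1.15 ± 0.123 were above 92.4% and 91.2%. Flt1 followed at 0.74 ± 0.094 and Pecam1 at 0.22 ± 0.030. Cldn5 at -0.26 ± 0.078, Slco1a4 at -0.42 ± 0.279 and Tek at -0.56 ± 0.10 lay below the median gene, with 38.1%, 31.2% and 26.0% of genes lower. Slc2a1 and Cdh5 did not differ beyond their spread, and neither did Cldn5, Slco1a4 and Tek among neighbours, while Itm2a lay above all others in each of its 3 control samples, 1.69 to 1.87.

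Over all 15 pairs of libraries, Itm2a stayed between 1.55 and 1.87 and Cldn5 between -0.48 and 0.00. For Cldn5 the mean was -0.26 in control, -0.18 at 5 min, -0.27 at 10 min, -0.21 at 30 min and -0.26 at 4 h, values that differed by less than the SD of the 10 min group. Pecam1 stood at -0.28 ± 0.316 at 10 min, against 0.22 ± 0.030 in control. Cdh5 moved the other way, to 1.54 ± 0.252 at 4 h, against 1.15 ± 0.123 in control. Footprint changes from control were known when both were chosen, so these ratios are a description. How many of all genes shift as far was not counted. Of the further endothelial genes, 15 of 32 were above the median gene in control, and of the barrier transporters 16 of 23.

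**Figure D5:**
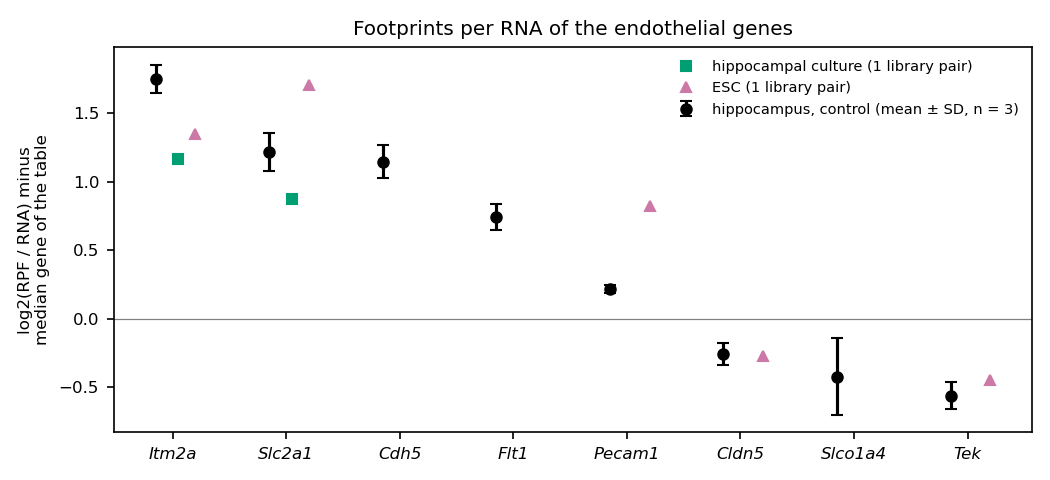
Footprints per RNA of each member, as log2 difference from the median gene of the same table (vertical axis), in control hippocampus (black, mean ± SD, n = 3), hippocampal culture (squares) and ESC (triangles), the last 2 with 1 library pair each. Itm2a and Slc2a1 are high and Cldn5 and Tek low in each table that lists them.

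Footprint and RNA signal were also compared sample by sample. For Cldn5, footprint and RNA signal gave Pearson's r = 0.68 and Spearman's rho = 0.67 over the 15 pairs; these are a description, with no test, because its footprints led to its choice. Without the 2 samples farthest from the median in RNA, r was 0.75. Within replicate numbers r was 0.67 and rho 0.71. The other 7 members were tested, with adjustment over the 7. They too were chosen with footprint changes from control known, so their p-values may not be independent of that choice and serve as a description. Pecam1 gave r = -0.05 and rho = 0.11 (permutation p = 0.866 and 0.704, adjusted 0.866 and 0.704), and without the 2 farthest samples r was 0.04. Tek gave r = 0.44 and rho = 0.45 (permutation p = 0.101 and 0.098, adjusted 0.118 and 0.137), with r = 0.50 without the farthest 2.

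For the other 5, whose replicate numbers separate, only values within numbers are given. Itm2a had r = 0.68 and rho = 0.55 (permutation p = 0.0157 and 0.0623, adjusted 0.110 and 0.436), with r = 0.46 without the 2 farthest samples. Slc2a1 had r = 0.34, Cdh5 0.15, Slco1a4 0.03 and Flt1 -0.04, with permutation p from 0.222 to 0.901 and adjusted p from 0.521 to 0.997; rho was 0.40, 0.28, 0.10 and -0.08.

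Between pairs of members, RNA deviations from the mean of each replicate number correlated over 15 libraries with a median r of 0.25, from -0.20 to 0.69, and 25 of 28 pairs were above 0. Members against the other 11523 genes had a median of -0.01. The closest pairs were Cdh5 with Slco1a4 (0.69) and Cldn5 with Cdh5 (0.68), while Cldn5 with Pecam1 gave 0.01. The genes most like Cldn5 by this measure were Tma16 (0.79), Rab3il1 (0.79), Elac2 (0.78), Ehd4 (0.77) and Ltbp4 (0.75). Those with the highest mean r over the 8 members were Gab2 (0.52), Zfp488 (0.52), Fstl4 (0.51), Nasp (0.50) and Podxl (0.50). All of these values come from the same libraries, which share depth and composition.

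In the primary culture Slc2a1 and Itm2a were listed and the other 6 members were not. Slc2a1 had a signal of 6.46 in footprints (95% exact Poisson interval 6.19 to 6.75) and 3.42 in RNA (3.12 to 3.73). Itm2a had 1.81 (1.66 to 1.96) in footprints and 0.732 (0.598 to 0.887) in RNA. The intervals cover counting error only, and the culture, ESC and tissue tables were scaled separately, so the levels are not set against one another. Of the further endothelial genes the culture table listed 11, where the tissue tables listed 32, and all 12 neuronal marker genes were in both.

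ESC listed Pecam1, Slc2a1, Tek, Itm2a and Cldn5, and not Cdh5, Flt1 or Slco1a4. Pecam1 had 21.9 (21.6 to 22.3) in footprints and 10.9 (10.5 to 11.3) in RNA, and Slc2a1 had 87.9 (87.1 to 88.6) and 23.7 (23.0 to 24.4). Tek had 1.82 (1.72 to 1.93) and 2.20 (2.01 to 2.41), and Itm2a 2.54 (2.42 to 2.67) and 0.814 (0.698 to 0.944). Cldn5 had 0.296 (0.256 to 0.341) in footprints, from 195 reads, and 0.321 (0.250 to 0.406) in RNA, from 69 reads. Footprints per RNA relative to the median gene of each table were 1.35 for Itm2a in ESC, 1.17 in culture and 1.75 in control hippocampus. For Slc2a1 they were 1.70 in ESC, 0.87 in culture and 1.22 in control hippocampus, for Cldn5 -0.27 in ESC and -0.26 in control hippocampus, and for Tek -0.45 and -0.56. Pecam1 stood at 0.82 in ESC and 0.22 in control hippocampus. With 1 library pair each, culture and ESC have no replicate check.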

How the data were processed

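The submitters' processing notes name CASAVA 1.8.2, the aligner Bowtie 1.1.1 and build mm9. The tissue headers do not name the unit of the deposited signal; per the file headers, the culture and ESC columns are a normalized count (ncount). Multiplied by 1 number per library, every deposited signal came within 0.001 reads of an integer. The counting of reads shared by several genes or strands is not stated. The authors' mean and log2 columns were not used, and 0 further per-sample columns existed.

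The 8 genes and the gene lists were chosen with earlier results of these data known. RNA and RPF were fitted with limma 3.58.1 in R 4.3.3 (lmFit, eBayes with trend) on log2(signal + 0.1), all 15 libraries of a kind in 1 model without a block, for genes with a mean signal of at least 0.1, which all 11531 passed; tests are 2-sided with Benjamini-Hochberg adjustment, threshold 0.05. A fold change on this scale understates the change of low genes. The model was run on simulated data that held no replicate effect, so that run does not show its power in these libraries. Libraries of the same number deviated together in all 30 pairs of each kind (r 0.258 to 0.755 in RNA, 0.379 to 0.859 in RPF), so the numbers pair the samples. No 2 libraries were identical. Correlations used 100000 permutations (Python 3.11.15, scipy 1.17.1). Intervals for 1 library are exact Poisson and leave out errors other than counting, PCR copies among them. Genes were named as all 8 members, and from each other vascular list the 3 with the highest mean RNA signal. Alternatives were other pseudocounts, filters, rescaling, voom, the replicate block and leaving out each replicate, singly or in every group.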

Additional observations from a re-analysis of the deposited data

How the results depend on the processing

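Of 48 member differences, the 14 larger than their SE kept their direction in 263 of 264 alternatives, the exception being Pecam1 RNA at 10 min without replicate 3 in every group. Of the 34 others, 31 changed sign under at least 1, in 120 of 638 alternatives: 69 left out 1 library, which sets the paired numbers unevenly between groups, 25 left out a number in every group and 26 were of other kinds. Leaving out a library or a number gave Cdh5 RNA differences of -0.25 to 0.0389 at 5 min, -0.28 to 0.0275 at 10 min, -0.30 to 0.0011 at 30 min and -0.22 to 0.0632 at 4 h, -0.0076 to 0.27 for Pecam1 RNA at 10 min, -0.0241 to 0.19 for Flt1 RNA at 4 h and -0.10 to 0.0489 for Cldn5 footprints at 4 h minus 5 min, with 0.0065 without replicate 1 in every group. Without a number in every group 0 genes were called in any of these comparisons. 0 members were called in any comparison of times, and the smallest adjusted p for a member was 0.104 (Cldn5, mean of the times, replicate block with voom). With the replicate block, the genes called over the whole table were 4, 5, 4 and 5 at 5, 10 and 30 min and 4 h, 4 for the mean of the times and 1 for RPF at 4 h minus 5 min, against 0 in each without it. They were 5, 5, 19, 2 and 1 at 10 min, 30 min, 4 h, the mean and RPF 4 h minus 5 min with the block and voom. The voom, rescaling and number alternatives were chosen after seeing the data. edgeR and its normalization were not run; voom on the recovered reads was used in its place.

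Between replicate numbers, leaving out 1 number gave 1808 to 6002 genes and 1 to 5 members in RNA and 1809 to 6681 genes and 0 to 6 members in RPF, each lowest without replicate 1; with all 3 there were 6395 genes and 4 members, and 7383 genes and 5 members. Itm2a lost that call with voom (adjusted p = 0.196 in RNA and 0.093 in RPF). Without replicate 2, limma called Cldn5 in RPF (adjusted p = 0.0318) and Flt1 in RNA (0.0366), and Itm2a lost its call in RPF (0.0703). Without replicate 3, limma called Pecam1 in RPF (adjusted p = 0.0499). A pseudocount of 1 moved the footprint difference at 10 min to -0.20 for Cldn5 and -0.17 for Pecam1. It moved footprints per RNA in control to -0.16 for Cldn5, 0.0921 for Pecam1, 0.46 for Flt1, 0.54 for Cdh5, -0.23 for Tek, 1.30 for Itm2a and 1.04 for Slc2a1. A pseudocount of 0.01 gave 0.25 for Pecam1 and 1.30 for Cdh5.

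Within replicate numbers, Pearson correlations of footprints with RNA that passed the threshold over the pooled pairs fell short of it for Cdh5 (r = 0.15), Slco1a4 (0.0338), Itm2a (0.68) and Slc2a1 (0.34), and the value for Flt1 turned to -0.0441; that of Pecam1 turned to 0.0368 without the 2 farthest samples. The cause was not tested. Depth limits Tek and Cdh5 most, with as few as 99 and 93 reads in a library.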
